A study of Bos taurus with 30 samples.

Results

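The comparison described here is that of bovine endometrial epithelial cells exposed to 10 ng/mL insulin with the same kind of cells exposed to vehicle. Its members are 6 of the 30 RNA-seq libraries of the series, chosen by their labels: 3 epithelial libraries at 10 ng/mL and 3 epithelial vehicle libraries, paired by replicate number. In both groups primary epithelial cells from uteri of nonpregnant cows lay in the upper chamber of a microfluidic device, with primary stromal cells below them across a porous membrane, and medium containing 5 mM glucose flowed over them for 72 hours. The vehicle was acetic acid in PBS. The cells had been isolated from tract material and grown in culture, and only these cell types were seeded. The paper calls the 3 replicates of each group biological, but the sources do not state whether each replicate number was a separate animal. The p-values therefore speak for these libraries only. With replicate number as a block, they measure the spread of the differences within pairs, shrunk toward that of all genes, and not the spread between libraries. Libraries of the same cells at 1 ng/mL and of the stromal cells of the same devices are used for reference values only.

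Insulin binds its receptor on the cell surface and signals through insulin receptor substrates and the kinase AKT, which keeps FOXO transcription factors out of the nucleus and favours uptake and storage of nutrients. At high concentrations it also acts through the receptor for insulin-like growth factor (IGF) 1. In the ruminant uterus the luminal and glandular epithelium makes the secretions that feed the conceptus before it implants, and it answers progesterone, estradiol and interferon tau.

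The 3 vehicle libraries held 9678779 to 12754316 counts and the 3 libraries at 10 ng/mL held 8826470 to 9528257, so each treated library was shallower than each vehicle library. The 30 epithelial markers summed to between 10646 and 11031 CPM (the count of a gene scaled to the library's total) in vehicle and to between 10282 and 11280 CPM at 10 ng/mL, and none of the 30 was at 0 in all 6 libraries. The 30 stromal markers, none of them at 0 in all 6 libraries, summed to 2531, 1778 and 5553 CPM in vehicle replicates 1, 2 and 3 and to 2141, 1925 and 5031 CPM at 10 ng/mL. In the stromal libraries of both groups the same 30 genes summed to between 61684 and 98335 CPM. The level of stromal markers therefore varied more between replicate numbers than between vehicle and insulin. Fewer cells of a type and less RNA per cell cannot be told apart in such libraries.

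Exposure to 10 ng/mL insulin changed few transcripts, and by small amounts. Genes counted as called had an adjusted p under 0.05 (edgeR's quasi-likelihood test with replicate number as a block and Benjamini-Hochberg adjustment over all genes tested) and a log2 fold change beyond 0.1. Of 12853 genes tested, 16 (0.124%) were called, 9 of them higher (0.0700%) and 7 lower (0.0545%) at 10 ng/mL. Transcripts that rose were those of the transcription factor CEBPB, 4 mRNAs of the mitochondrial genome, HMOX1, IGFBP3, VGF and a protein-coding gene with no symbol, ENSBTAG00000053545. Transcripts that fell were RSAD2, NR4A2, MCUB, MMP13, a protein-coding gene with no symbol, ENSBTAG00000009359, and 2 short noncoding RNAs. Only 3 of all genes tested had a fitted log2 fold change beyond 1 in either direction, and none of the 16 called genes did. At an unadjusted p under 0.05 there were 894 genes, 6.96% of those tested. All 16 called genes moved the same way in 3 of 3 pairs, as did 27.5% of all genes tested. The CPM of vehicle and insulin libraries did not overlap for 4 of the 16, beside 2.86% of all genes tested, and overlapped for the other 12. Those 4 were CEBPB and MT-ATP8, higher at 10 ng/mL (1.62% of all genes tested were apart in that direction), and NR4A2 and ENSBTAG00000048346, lower (1.24%). With no replicate block the count of called genes was 0 of 12853 (38 at an unadjusted p under 0.05), and DESeq2 with the block also called 0 (79 at an unadjusted p under 0.05).

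**Figure D1:**
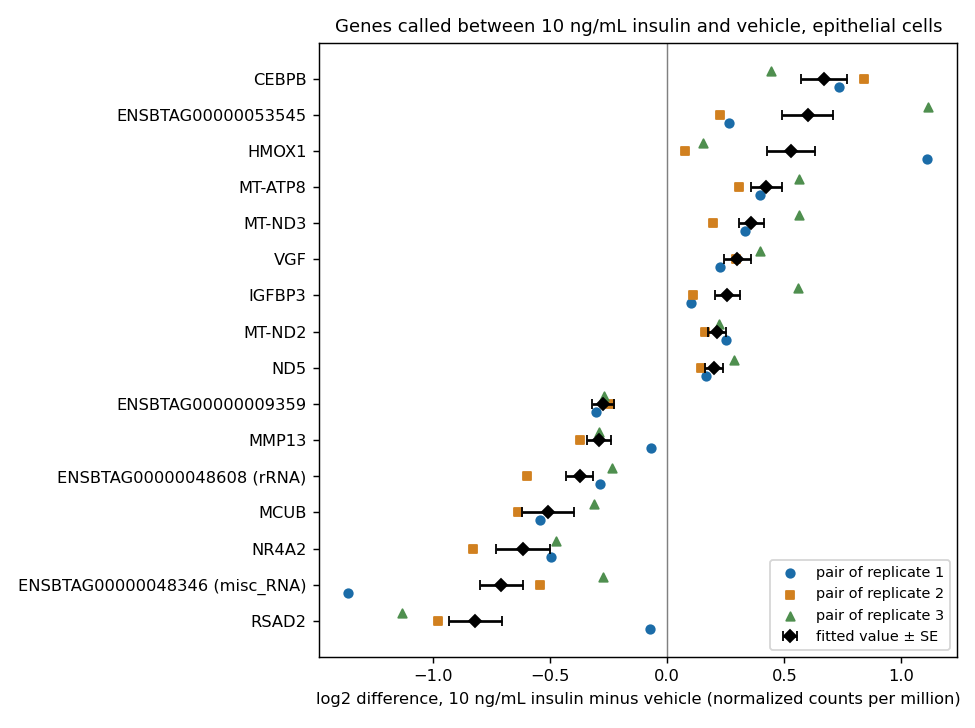
Log2 difference between 10 ng/mL insulin and vehicle for the 16 called genes in epithelial cells. Coloured points are the 3 replicate pairs, and diamonds with bars are the fitted value and its SE. Every point of a gene lies on the same side of 0. The pairs lie far apart for ENSBTAG00000048346 (-1.36 to -0.27), RSAD2 (-1.13 to -0.07), HMOX1 (0.08 to 1.11) and ENSBTAG00000053545 (0.22 to 1.12).

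CEBPB (ENSBTAG00000051972) encodes a leucine zipper transcription factor that takes part in the differentiation of endometrial cells and in the expression of metabolic and inflammatory genes. It measured 17.5, 10.5 and 15.9 CPM in vehicle replicates 1, 2 and 3, and 29.9, 19.1 and 21.5 CPM at 10 ng/mL. The lowest insulin library lay above the highest vehicle library. The fold was 1.59 (log2 fold change 0.67 ± 0.0970 SE, n = 3 pairs, adjusted p = 0.000344 by edgeR's quasi-likelihood test), with pair differences of 0.74, 0.84 and 0.44. It was called in each of the 3 fits that left out a pair. CEBPB was not called with DESeq2 (adjusted p = 0.334, Wald test) or without the replicate block. Nor was it called in a fit of all 9 epithelial libraries, 1 ng/mL included (adjusted p = 0.705, edgeR). Of its family, CEBPD, a relative that is also induced early, measured 30.2, 35.9 and 31.5 CPM in vehicle and 43.3, 38.4 and 34.3 CPM at 10 ng/mL. CEBPD was higher in every pair but its groups overlapped, and it did not pass the test (log2 fold change 0.25 ± 0.0779 SE, adjusted p = 0.391). CEBPG, typed as a long noncoding RNA in the annotation, was at 0.04 and CEBPZ, grouped here by its name alone, at 0.01, neither called.

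Messenger RNAs encoded by the mitochondrial genome rose in part. This small circular genome encodes 13 proteins, all subunits of the respiratory chain or of ATP synthase, and is copied into long transcripts that are then cut at tRNAs. All 7 mRNAs for subunits of complex I, the NADH dehydrogenase that opens the respiratory chain, had a log2 fold change above 0, and 3 were called. Of the 6 for complexes III, IV and V, all were above 0 and 1 was called. The medians were 0.19 and 0.11, beside -0.0037 over all genes tested, of which 48.3% were above 0. Since these mRNAs are cut from shared long transcripts and were measured in the same pairs, their directions are not separate observations.

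MT-ND3 (ENSBTAG00000043568), a small complex I subunit, measured 77.9, 114 and 76.6 CPM in vehicle and 100.2, 131 and 112 CPM at 10 ng/mL (log2 fold change 0.36 ± 0.0544 SE, adjusted p = 0.000494). It was higher in each pair, but the vehicle library of replicate 2 lay above the insulin libraries of replicates 1 and 3. MT-ATP8 (ENSBTAG00000043564), a small subunit of ATP synthase, measured 35.0, 44.3 and 35.5 CPM in vehicle and 47.1, 55.3 and 52.2 CPM at 10 ng/mL (0.42 ± 0.0667, adjusted p = 0.000834). Its groups did not overlap. MT-ND2 (ENSBTAG00000043571) went from 428, 568 and 442 CPM to 520.3, 640.5 and 510.2 CPM (0.21 ± 0.0383, adjusted p = 0.00592) and ND5 (ENSBTAG00000043563) from 955, 1319 and 1072 CPM to 1092, 1469 and 1295 CPM (0.20 ± 0.0385, adjusted p = 0.0126). These complex I subunits were higher in each pair and overlapped between groups, with replicate 2 highest in both. MT-CYB, the complex III subunit, lay next to the threshold (0.17 ± 0.0386, adjusted p = 0.0755). Without replicate 3 none of the 4 called mRNAs passed the test, at 0.26 for MT-ND3 (adjusted p = 0.119), 0.35 for MT-ATP8 (0.0617), 0.21 for MT-ND2 (0.0882) and 0.15 for ND5 (0.462).

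The other mitochondrial mRNAs were not called. Among them MT-ND4L was at 0.19, MT-ND4 at 0.15, MT-ATP6 at 0.12, COX3 at 0.11, ND1 at 0.09, MT-CO2 at 0.06 and COX1 at 0.01. MT-ND6, encoded on the opposite strand from the other 12, was at 0.06, and its pairs were at 0.19, -0.21 and 0.21. MT-ATP8 overlaps MT-ATP6 and MT-ND4L overlaps MT-ND4 on the same strand, so reads in the shared stretches cannot be assigned with certainty. How the strand was set in counting, which bears on MT-ND6, is not given in the sources used here. As a share of the library, the 13 mRNAs took 1.69%, 2.24% and 1.93% of counts in vehicle and 1.79%, 2.36% and 2.02% at 10 ng/mL. The 2 mitochondrial rRNAs took far more, 18.3%, 15.9% and 12.7% in vehicle and 17.4%, 15.5% and 14.1% at 10 ng/mL, and neither was called, with a median log2 fold change of 0.0032. The directions of the 13 mRNAs were the same under TMM, DESeq2's size factors, upper-quartile scaling and scaling on nuclear genes alone.

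No nuclear partner of these mRNAs was called. None of 37 nuclear subunits of complex I was called or reached an unadjusted p under 0.05, and 13 were above 0 and 24 below, with a median of -0.016. Of 32 nuclear subunits of complexes II to V none was called, and 2, ATP5MC1 and ATP5MC2, both of the membrane ring of ATP synthase, were higher at an unadjusted p under 0.05 (3.26% of all genes tested were). None of 30 genes for mitochondrial transcription and RNA handling reached that level. MCUB (ENSBTAG00000012995), a mitochondrial membrane protein that restrains the calcium uniporter, fell from 19.0, 16.5 and 13.2 CPM to 13.3, 10.6 and 10.5 CPM (-0.51 ± 0.109, adjusted p = 0.0423). Its libraries overlapped, since vehicle replicate 3 was as low as insulin replicate 1, and it was called in none of the 3 fits that left out a pair (adjusted p = 0.0549 to 0.198).

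**Figure D2:**
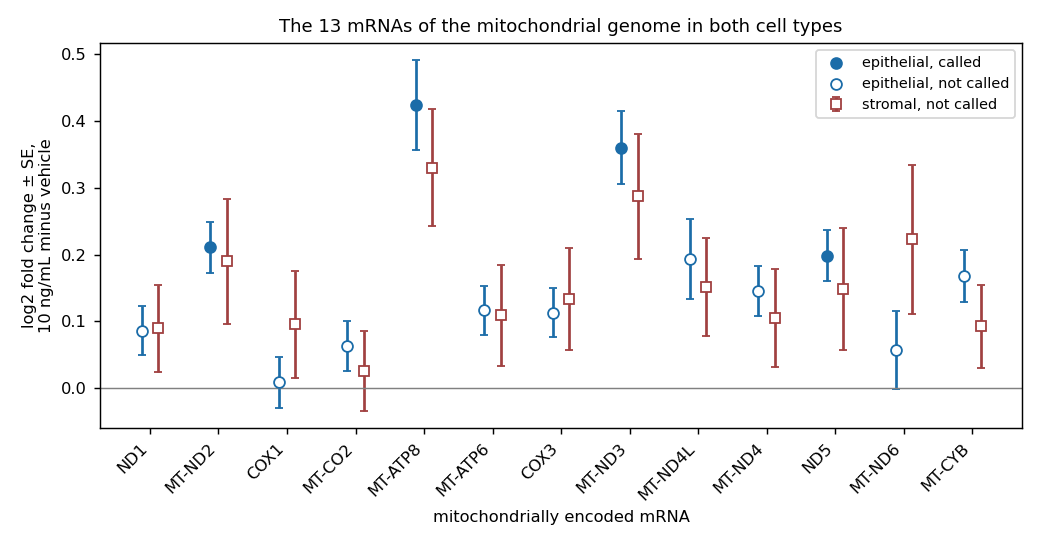
Log2 fold change between 10 ng/mL insulin and vehicle for the 13 mRNAs of the mitochondrial genome, with SE, in epithelial cells (circles, filled where called) and stromal cells (squares, none called). MT-ATP8 (0.42) and MT-ND3 (0.36) are highest in epithelial cells, and they are also highest in stromal cells (0.33 and 0.29).

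Of the genes nearest to insulin itself, 1 was called. IGFBP3 (ENSBTAG00000003994) encodes the main carrier of IGFs in blood, which is also made by the endometrium of ruminants in early pregnancy. It measured 382, 1122 and 484 CPM in vehicle and 418, 1222 and 705 CPM at 10 ng/mL (log2 fold change 0.26 ± 0.0532, adjusted p = 0.0285). Replicate 2 was the highest in both groups and the groups overlapped. The pair differences were 0.10, 0.11 and 0.56, and without replicate 3 the log2 fold change was 0.11 and the adjusted p 0.782. The other 8 IGF binding proteins and related genes tested were not called. IGFBP2, IGFBP6 and IGFBP7 were each lower in 3 of 3 pairs, at -0.13, -0.14 and -0.16, with adjusted p of 0.409, 0.361 and 0.713.

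None of 38 receptors and signalling genes of insulin and IGF was called. At an unadjusted p under 0.05, beside 3.26% of all genes tested, 3 of the 38 were higher. These were IGF1R, the type 1 IGF receptor (0.10 ± 0.0423, adjusted p = 0.662), the adaptor IRS2 (0.35 ± 0.154, adjusted p = 0.685) and TRIB3, a pseudokinase that binds AKT (0.15 ± 0.0703, adjusted p = 0.711). IRS2 was scarce, at 4.03 to 7.97 CPM in vehicle and 5.78 to 9.55 CPM at 10 ng/mL. Of 25 genes that insulin is known to repress through FOXO factors none was called. At an unadjusted p under 0.05, 2 were higher and 2 lower, beside 3.26% and 3.70% of all genes tested. The pro-apoptotic gene BCL2L11 and IRS2 were the higher ones (BCL2L11 at 0.26), and SESN3, a stress-induced regulator of growth signalling, and PDK4, a kinase that shuts off pyruvate oxidation, the lower ones (-0.19 and -0.26). Nor was any of 34 genes of glycolysis and glucose transport or of 34 genes of cholesterol and fatty acid synthesis called, with medians of -0.031 and -0.044.

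HMOX1 (ENSBTAG00000015582), the inducible heme oxygenase that responds to oxidative stress and frees iron from heme, measured 49.5, 41.4 and 46.1 CPM in vehicle and 109, 44.1 and 50.9 CPM at 10 ng/mL. Replicate 1 at 10 ng/mL stood apart from the other 5 libraries, and the other insulin libraries lay within or just above the vehicle range. The fit gave a log2 fold change of 0.53 ± 0.104 SE (adjusted p = 0.0143) and pair differences of 1.11, 0.08 and 0.15. Without replicate 1 the log2 fold change was 0.12 and the adjusted p 0.980, so the call rested on that pair. In the same library TFRC, the transferrin receptor that imports iron, measured 69.6 CPM, beside 132 CPM in its vehicle partner and between 153 and 181 CPM in the other 4 libraries.

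TFRC was not called (-0.29 ± 0.0859, adjusted p = 0.285), with pair differences of -0.95, 0.02 and -0.08. Of the 25 genes of iron handling and oxidative stress tested, HMOX1 was the 1 called. At an unadjusted p under 0.05, 4 were higher and 2 lower, beside 3.26% and 3.70% of all genes tested. FTL, the light chain of the iron store ferritin, was at 0.15 and higher in each pair (adjusted p = 0.522), FTH1, its heavy chain, at -0.04 (adjusted p = 0.908), and the metal-binding protein MT2A at 0.35 (adjusted p = 0.291).

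VGF (ENSBTAG00000009868) encodes a secreted precursor of peptides known from neurons and endocrine cells. It measured 98.2, 24.2 and 59.9 CPM in vehicle and 117, 29.9 and 78.2 CPM at 10 ng/mL (0.30 ± 0.0567, adjusted p = 0.00910), with differences of 0.23, 0.29 and 0.40. The libraries of replicate 1 were the highest and those of replicate 2 the lowest in both groups, so the groups overlapped although VGF was higher in each pair. Without replicate 3 it was at 0.25 and not called (adjusted p = 0.477). ENSBTAG00000053545, a protein-coding gene for which the annotation gives no symbol, measured 14.0, 34.7 and 27.5 CPM in vehicle and 17.2, 40.9 and 59.2 CPM at 10 ng/mL (0.60 ± 0.107, adjusted p = 0.00510). The third pair, at 1.12, was far from the others, at 0.26 and 0.22, and without it the gene was not called (0.24, adjusted p = 0.738).

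RSAD2 (ENSBTAG00000016061), which encodes viperin, an antiviral enzyme induced by interferons including interferon tau, showed the largest fold change of the 16. It measured 16.1, 40.9 and 47.0 CPM in vehicle and 15.6, 20.8 and 21.1 CPM at 10 ng/mL. Replicate 1 was low in both groups, and the difference lay in replicates 2 and 3. The log2 fold change was -0.82 ± 0.112 SE (adjusted p = 0.000173), with pairs at -0.07, -0.98 and -1.13. RSAD2 was called in each of the 3 fits that left out a pair. It was not called with DESeq2, without the replicate block or in the fit of all 9 epithelial libraries.

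RSAD2 was the 1 gene called of the 40 interferon-response genes tested. At an unadjusted p under 0.05, 9 of the 40 were lower and 1 was higher, beside 3.70% and 3.26% of all genes tested, and 30 were below 0, beside 51.7% of all genes. The median was -0.085, and by pair it was 0.0031, -0.12 and -0.090. OAS1Y, an antiviral synthetase, lay next to the threshold at -0.31 ± 0.0672 (adjusted p = 0.0524), as did MX1, an antiviral GTPase and a marker of pregnancy recognition in cattle, at -0.22 ± 0.0512 (adjusted p = 0.0800). MX1 measured 103, 56.7 and 106 CPM in vehicle and 92.8, 46.5 and 91.2 CPM at 10 ng/mL, lower in each pair with groups that overlapped. IFIT3 was at -0.89 ± 0.214 (adjusted p = 0.105) but measured only 2.12, 5.37 and 6.94 CPM in vehicle and 1.45, 2.83 and 3.46 CPM at 10 ng/mL.

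NR4A2 (ENSBTAG00000003650), an orphan nuclear receptor switched on quickly by hormones and growth factors, measured 13.2, 19.3 and 14.1 CPM in vehicle and 9.47, 10.9 and 9.97 CPM at 10 ng/mL. All 3 insulin libraries lay below all 3 vehicle libraries (-0.62 ± 0.115, adjusted p = 0.00812), and the call was lost without replicate 2 (-0.49, adjusted p = 0.10). Its relative NR4A1 was lower in each pair, at -0.28 ± 0.0883, and was not called (adjusted p = 0.414), with overlapping levels of 19.1 to 47.3 CPM in vehicle and 11.4 to 40.6 CPM at 10 ng/mL. NR4A3, at 1.02 to 5.88 CPM in the 6 libraries, was at -0.14 (adjusted p = 0.950).

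Of 33 immediate early genes tested, NR4A2 was the 1 called. At an unadjusted p under 0.05, 8 were lower and 1 higher, beside 3.70% and 3.26% of all genes tested, while 16 were above and 17 below 0 with a median of -0.00027. The lower ones included DUSP1, a phosphatase that switches off MAP kinases (-0.17 ± 0.0397, adjusted p = 0.0903), and SPRY2, an inhibitor of receptor tyrosine kinase signalling (-0.19 ± 0.0557, adjusted p = 0.282). The higher one was JUND, a subunit of AP-1 (0.16 ± 0.0444, adjusted p = 0.235).

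MMP13 (ENSBTAG00000015059), a collagenase, varied more between replicates than the other 15 called genes. It measured 21.7, 123 and 342 CPM in vehicle and 21.2, 95.5 and 277 CPM at 10 ng/mL. Replicate 1 was low and replicate 3 high in both groups. The log2 fold change was -0.29 ± 0.0513 (adjusted p = 0.00468), with differences of -0.07, -0.37 and -0.29, and without replicate 3 it was not called (-0.28, adjusted p = 0.365). In stromal vehicle replicates 1, 2 and 3 MMP13 measured 0.175, 6.70 and 0 CPM, all below each of the 6 epithelial libraries. Replicate 2 was also the stromal vehicle library with the highest sum of epithelial markers, 449 CPM. Of 14 metalloproteinases and their inhibitors tested, MMP13 was the 1 called. MMP9, a gelatinase, was lower in each pair (-0.86 ± 0.228, adjusted p = 0.193) at only 1.45 to 6.66 CPM, and the inhibitors TIMP2 and TIMP3 were at 0.22 and 0.10 (adjusted p = 0.574 and 0.645).

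None of 39 matrix proteins and syndecans was called. Of the 39, 31 were below 0, beside 51.7% of all genes tested, and 12 were lower and none higher at an unadjusted p under 0.05, beside 3.70% and 3.26% of all genes tested. The median was -0.068, and by pair it was -0.12, 0.074 and -0.079, so replicate 2 went the other way. FN1, which encodes fibronectin, measured 27945, 34220.4 and 21851 CPM in vehicle and 27691, 29955 and 19006 CPM at 10 ng/mL (-0.14 ± 0.0411, adjusted p = 0.259). It was lower in each pair and the groups overlapped. The stromal marker list shares members with the matrix list, LUM and DCN among them, so the directions of these lists are not separate observations. None of 27 stromal markers tested was called, and 9 were lower and none higher at an unadjusted p under 0.05. Their median was -0.14, with pairs at -0.22, 0.21 and -0.15. Replicate 2, where the stromal markers' sum was higher at 10 ng/mL, was also the pair in which LUM and DCN, proteoglycans of fibroblast matrix, were higher (0.30 and 0.16, beside -0.61 and -0.53 in replicate 1 and -0.21 and -0.23 in replicate 3). VIM, the mesenchymal intermediate filament that cultured epithelial cells can also make, measured 692, 661 and 647 CPM in vehicle and 611, 629 and 578 CPM at 10 ng/mL (-0.15 ± 0.0385, adjusted p = 0.177). The 11 smooth muscle and pericyte markers tested had a median of -0.18, with 5 lower at an unadjusted p under 0.05 and none called. The part of the stromal level in the matrix values was not tested.

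**Figure D3:**
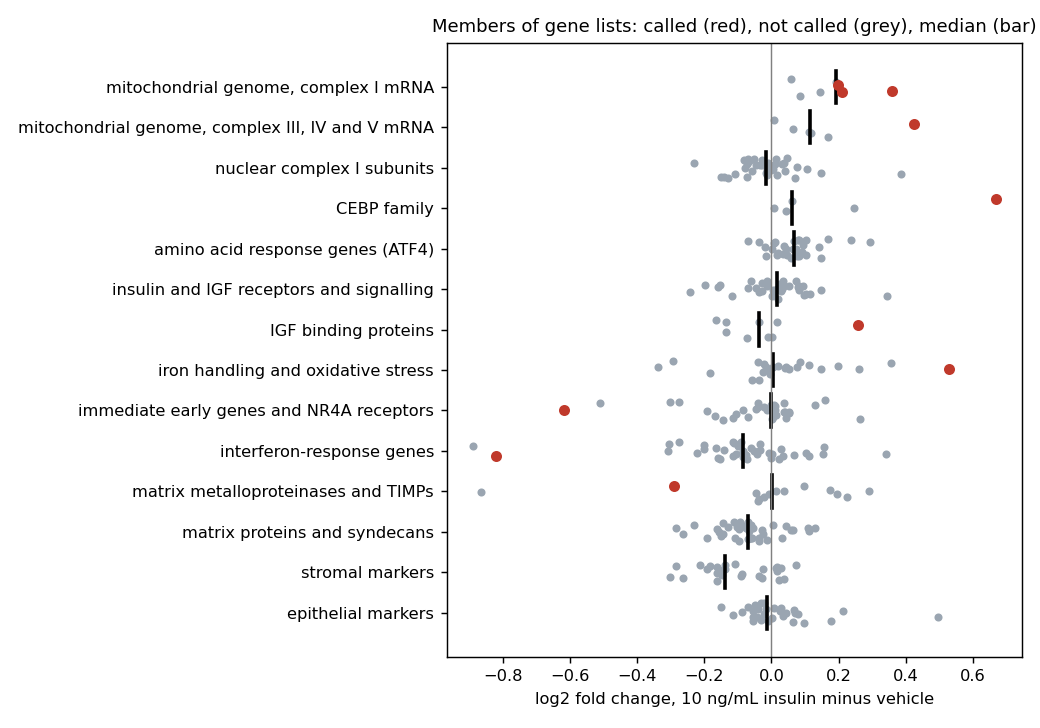
Log2 fold change between 10 ng/mL insulin and vehicle for the tested members of 14 gene lists in epithelial cells, with called members in red, other members in grey and each list's median as a bar. The lists of mitochondrial mRNAs lie wholly above 0, the interferon-response list has a median of -0.085, and the stromal markers one of -0.14.

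Both short RNAs that fell are transcribed from repeated genes. ENSBTAG00000048346 is annotated to the family of the signal recognition particle RNA, which targets secreted proteins to the endoplasmic reticulum. It measured 296, 235 and 275 CPM in vehicle and 118, 162 and 225 CPM at 10 ng/mL (-0.71 ± 0.0915, adjusted p = 0.000101). The groups did not overlap, and replicate 1 at 10 ng/mL was the lowest. The pair differences were -1.36, -0.54 and -0.27, and without replicate 1 the log2 fold change was -0.40 and still called (adjusted p = 1.15e-10). This RNA was not called with DESeq2, without the replicate block or in the fit of all 9 epithelial libraries. Of the 14 members of this family tested it was the 1 called, and 5 were above and 9 below 0. At an unadjusted p under 0.05, 5 were lower and none higher, beside 3.70% and 3.26% of all genes tested. The family median was -0.062. Its most abundant tested member, ENSBTAG00000049916, averaged 3012 CPM in vehicle and 2813 CPM at 10 ng/mL and was not called (-0.11). Its pairs were at -0.11, -0.35 and 0.12, so the fall of the called copy does not stand for the family as a whole. ENSBTAG00000048608 is annotated to 5.8S ribosomal RNA. It measured 82.8, 117 and 107 CPM in vehicle and 69.3, 78.1 and 89.8 CPM at 10 ng/mL (-0.37 ± 0.0566, adjusted p = 0.000494). It was lower in each pair, and the groups overlapped. Copies of both families are nearly alike, so how uniquely mapped reads fall among them is uncertain. A protein-coding gene with no symbol, ENSBTAG00000009359, went from 132, 99.9 and 186 CPM to 109, 85.0 and 153 CPM (-0.27 ± 0.0454, adjusted p = 0.00186), with differences of -0.30, -0.24 and -0.27, the most even of those that fell. It was not called without replicate 3 (-0.28, adjusted p = 0.0748).

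The 1 ng/mL epithelial libraries give the level at a lower concentration. That comparison shares its 3 vehicle libraries with the one at 10 ng/mL, so the values are set side by side and not tested for likeness. At 1 ng/mL against vehicle 0 of 12966 genes were called (383, 2.95%, at an unadjusted p under 0.05, edgeR), and at 10 against 1 ng/mL 0 of 12873 (572, 4.44%). CEBPB measured 11.5, 7.81 and 27.5 CPM at 1 ng/mL, below vehicle in replicates 1 and 2 and above both vehicle and 10 ng/mL in replicate 3, so its log2 fold change against vehicle was 0.02 at 1 ng/mL and 0.67 at 10 ng/mL. The corresponding values were 0.07 and 0.36 for MT-ND3, 0.09 and 0.42 for MT-ATP8, 0.05 and 0.21 for MT-ND2, and 0.06 and 0.20 for ND5. They were 0.26 and 0.53 for HMOX1, 0.07 and 0.26 for IGFBP3, -0.15 and -0.62 for NR4A2, and -0.33 and -0.29 for MMP13. RSAD2 was at -1.02 at 1 ng/mL and -0.82 at 10 ng/mL, so its fall was not larger at the higher concentration.

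Some interferon-response genes were low in 1 library at 1 ng/mL, a pattern picked out after the values were seen. RSAD2 measured 11.5, 36.4 and 5.17 CPM there, so replicate 3 was the lowest of the 9 epithelial libraries, while its vehicle partner, at 47.0 CPM, was the highest. Replicates 1 and 2 at 1 ng/mL were also below their vehicle partners, which measured 16.1 and 40.9 CPM. The same library of replicate 3 was the lowest of the 9 for OAS1Y, at 21.4 CPM against 64.2 CPM in its vehicle partner, and for IFIT3, at 0.994 CPM against 6.94 CPM. MX1, at 51.8 CPM against 106 CPM, was lower there too. Log2 fold changes against vehicle at 1 and 10 ng/mL were -0.43 and -0.22 for MX1 and -0.53 and -0.31 for OAS1Y. For IFIT3 they were -0.83 and -0.89.

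**Figure D4:**
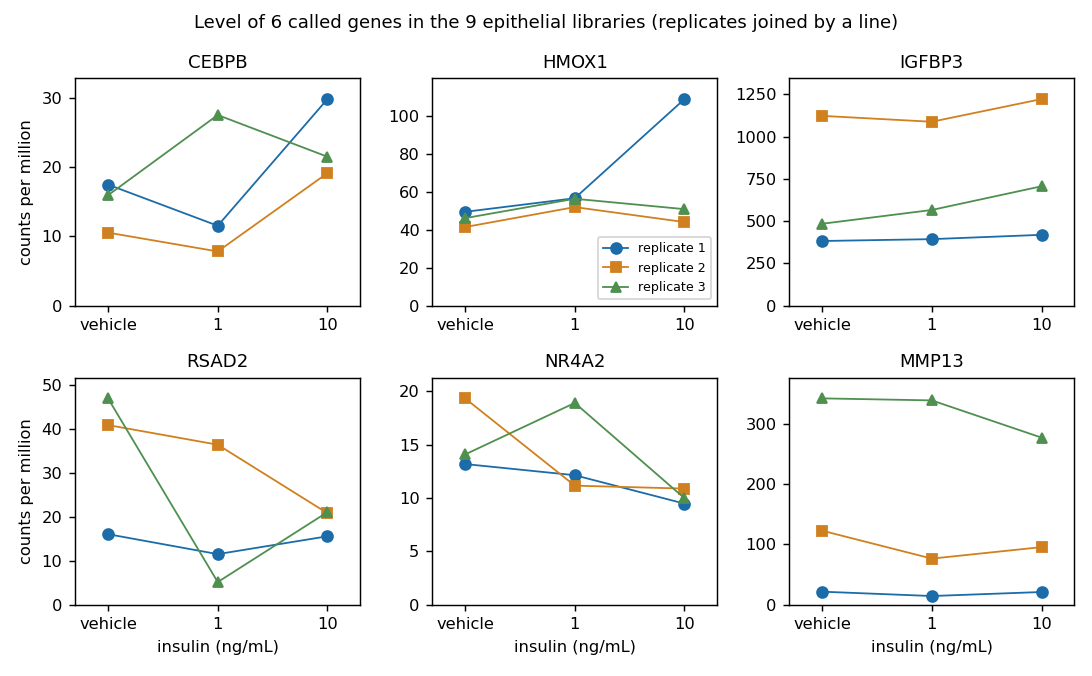
CPM of 6 called genes in the 9 epithelial libraries, by insulin concentration, with lines joining libraries of the same replicate number. HMOX1 stands out in replicate 1 at 10 ng/mL (109 CPM), RSAD2 is lowest in replicate 3 at 1 ng/mL (5.17 CPM), and MMP13 differs most between replicates.

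Stromal cells of the same devices were compared in the same way. At 10 ng/mL against vehicle 0 of 12779 genes were called in stroma (356, 2.79%, at an unadjusted p under 0.05, edgeR). The difference of the insulin effect between epithelial and stromal cells was tested directly, and 0 of 13904 genes were called (563, 4.05%, at an unadjusted p under 0.05 by edgeR, and 0 called by DESeq2). For none of the 16 genes was the effect therefore shown to differ between the cell types. Stromal log2 fold changes were 0.29 ± 0.0939 for MT-ND3, 0.33 ± 0.0879 for MT-ATP8, 0.19 ± 0.0932 for MT-ND2 and 0.15 ± 0.0912 for ND5. For these 4 the epithelial minus stromal difference was 0.08 ± 0.145, 0.10 ± 0.115, 0.01 ± 0.146 and 0.04 ± 0.134.

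Other genes lay further apart in value. The difference was -0.73 ± 0.142 for MCUB, which was at 0.20 in stroma (unadjusted p = 0.000582, adjusted p = 1), 0.67 ± 0.283 for HMOX1, at -0.19 in stroma, and 0.32 ± 0.118 for VGF, at -0.03 in stroma. CEBPB was at 0.27 ± 0.128 and NR4A2 at -0.23 ± 0.178 in stroma, in the epithelial direction. RSAD2 and ENSBTAG00000053545 averaged 0.0604 and 0.241 CPM in stromal vehicle libraries and were too low to be tested in stroma alone. In the fit of the difference RSAD2 was at -3.91 ± 1.45 and ENSBTAG00000053545 at 1.31 ± 1.66, neither called. Stromal RSAD2 at 10 ng/mL measured 1.66 CPM in replicate 1, beside 0 and 0.0961 CPM in replicates 2 and 3. The sum of the 30 epithelial markers was 449 CPM in stromal vehicle replicate 2 and 404 CPM in stromal replicate 1 at 10 ng/mL, against 25.6 to 60.3 CPM in the other 4 of these libraries, and without replicate 1 or 2 the difference between cell types gave 45 and 170 called genes. The part of those epithelial transcripts in the counts was not tested.

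**Figure D5:**
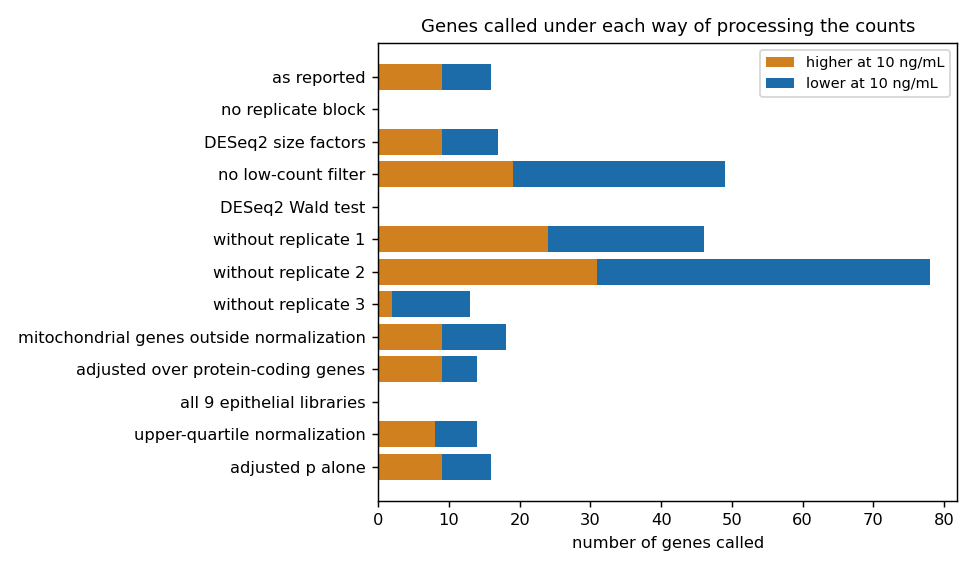
Number of genes called between 10 ng/mL insulin and vehicle in epithelial cells under each way of processing the counts, split by direction. The count is 16 as reported, 0 under 3 of the alternatives, and 78 at most, without replicate 2.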

How the data were processed

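RNA-seq was made from epithelial and stromal cells of a microfluidic endometrium model. The authors trimmed reads with Cutadapt, filtered them by quality, aligned them to the Ensembl cow genome with Rsubread, kept uniquely mapped reads and counted them per gene with featureCounts; versions are not given in the sources used here. The deposited values are raw counts per gene for 18 insulin libraries and 27607 genes. The authors' own comparison tables were used only for gene symbols and types (11682 of the genes tested had a symbol), and their fold changes and p-values were not used.

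From the counts, edgeR 4.0.16 in R 4.3.3 was run on the 6 libraries: filterByExpr, TMM (factors 0.966 to 1.05), and the quasi-likelihood test with replicate number as a block. SE is the log2 fold change divided by the square root of F. The common dispersion was 0.00124, and the spread of each gene was shrunk with 30.1 prior degrees of freedom toward that of all genes. Pair differences are log2 CPM with a prior count of 2. The difference between cell types was a contrast over 12 libraries with the replicate number within cell type as a block. DESeq2 1.42.0 (Wald test) was an alternative. The scripts were tested on simulated counts.

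The block follows the study's paired design, and the numbers did pair the libraries: deviations from the group means correlated at 0.773, 0.824 and 0.836 between libraries of the same number (across 12853 genes, which are not independent replicates). Between different numbers they correlated at -0.543 to -0.302. Each group was centred on its own mean, so these negative values follow from the positive ones and add no evidence of pairing. Depth was 8826470 to 12754316 counts per library, and counts cover sampling error only. Genes named are all those called, the 12 next to the threshold with a symbol, the 13 mitochondrial mRNAs, families of called genes, genes the study names, and list members that were called or had the smallest p. The members, gene lists and tests were chosen with earlier results of these data known, so lists are described by counts and medians and carry no test. Glucose libraries were not used here. The reference tables used hold no sequence, so none is shown.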

Additional observations from a re-analysis of the deposited data

How the results depend on the processing

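The number of genes called at 10 ng/mL against vehicle was 16 as reported. It was 0 without the replicate block that pairs the libraries, 0 with DESeq2's Wald test (smallest adjusted p = 0.316) and 0 in a fit of all 9 epithelial libraries (731 at an unadjusted p under 0.05, smallest adjusted p = 0.117, edgeR). With no low-count filter it was 49, and all 16 were among them. Leaving out a replicate gave 13 to 78 called genes: 46 without replicate 1 and 78 without replicate 2, each sharing 14 with the 16, and 13 without replicate 3, sharing 6. Without replicate 3, 2 of the 13 were higher and 11 lower. CEBPB, RSAD2, ENSBTAG00000048346 and ENSBTAG00000048608 were called in all 3 of these fits. DESeq2's size factors gave 17, upper-quartile scaling 14, scaling on nuclear genes 18, adjustment over protein-coding genes 14, and the adjusted p alone 16. The cause of these differences was not tested.

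For the difference between cell types, leaving out a replicate gave 0 to 170 called genes. Without replicate 1 there were 45, of which 44 had a more positive insulin effect in epithelial than in stromal cells. Without replicate 2 there were 170, of which 2 had a more positive effect in epithelial cells. A more positive effect is not a higher level, and it can come from a fall in stromal cells alone. The block changed no call, since the count was 0 with and without it. Among uncalled genes the log2 fold change changed sign when a replicate was left out for MT-ND6 (-0.013 to 0.20), CEBPZ (-0.0052 to 0.030), MMP3 (-0.026 to 0.66), MMP7 (-0.15 to 0.053), MMP11 (-0.14 to 0.11), MMP2 (-0.11 to 0.092, and 0.038 with DESeq2's Wald test) and MMP28 (-0.043 to 0.15). Each gene's spread rested on 2 residual degrees of freedom beside 30.1 borrowed from all genes. Genes at a few CPM, such as IFIT3, MMP9 and NR4A3, were measured from 9 to 13 counts in their lowest library.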

Other observations

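Genes of the amino acid response, which the factor ATF4 switches on when amino acids are short or the endoplasmic reticulum is stressed, lay mostly above 0 at 10 ng/mL. None of 31 tested was called. At an unadjusted p under 0.05, 9 were higher and none lower, beside 3.26% and 3.70% of all genes tested, and 27 were above 0, beside 48.3% of all genes. The median was 0.066. ATF5, a relative of ATF4, measured 57.7, 32.9 and 70.4 CPM in vehicle and 74.1, 34.1 and 83.2 CPM at 10 ng/mL (0.24 ± 0.0605, adjusted p = 0.174). ATF4 itself measured 334, 266 and 313 CPM in vehicle and 361, 283 and 344 CPM at 10 ng/mL (0.10 ± 0.0396, adjusted p = 0.595). Both were higher in each pair and overlapped between groups. SESN2, a stress-induced inhibitor of mTORC1, was at 0.17 (adjusted p = 0.458) and GDF15, a secreted stress hormone, at 0.14 (adjusted p = 0.645). By contrast, none of 24 chaperones and unfolded protein response genes of the endoplasmic reticulum was called, 2 were lower at an unadjusted p under 0.05 (PDIA6 at -0.10 and PDIA4 at -0.09), and the median was -0.025.

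Prostaglandin genes, which the bovine endometrium uses to end or keep the luteal phase, gave no call among 14 tested. At an unadjusted p under 0.05, 2 were higher and 2 lower, beside 3.26% and 3.70% of all genes tested. PLA2G4A, the phospholipase that frees arachidonic acid, was at -0.24 ± 0.0620 (adjusted p = 0.165) with pairs at -0.41, 0.01 and -0.41. PTGS2, the inducible cyclooxygenase, measured 91.2, 197 and 143 CPM in vehicle and 82.8, 183 and 120.2 CPM at 10 ng/mL (-0.17 ± 0.0456, adjusted p = 0.193), while PTGS1, the constitutive one, was at 0.18 (adjusted p = 0.396) and the prostaglandin transporter SLCO2A1 at 0.29 (adjusted p = 0.414). None of 26 steroid receptor and receptivity genes was called: SPP1, the adhesion protein osteopontin, was at -0.16, and BMP2, a growth factor, and MUC1, a mucin of the apical surface, were at 0.12 and 0.09. None of 18 cytokines and chemokines (median -0.065), 44 cell cycle genes (-0.092) or 75 cytosolic ribosomal proteins (-0.0037) was called either. In the cell cycle list 5 were lower and none higher at an unadjusted p under 0.05, the medians by pair were -0.019, 0.039 and -0.19, and CENPF, a kinetochore protein, had pairs at 0.08, -0.14 and -0.44. Of 30 epithelial markers tested none was called, and ESRP1, an epithelial splicing factor, was at 0.18 (adjusted p = 0.285). Of the other marker lists, 3 leukocyte, 4 endothelial and 5 ciliated cell markers passed the filter on low counts and none was called.

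The protein-coding genes next to the threshold that are in no list above were ID4, an inhibitor of basic helix-loop-helix factors, at 0.60 ± 0.135 (adjusted p = 0.0730), DLG2, a scaffold protein, at 0.46 (adjusted p = 0.0913), MXRA5, a matrix protein, at -0.27 (adjusted p = 0.0964), PLOD2, which modifies collagen lysines, at -0.18 (adjusted p = 0.105), LPIN1, a phosphatidate phosphatase, at -0.22 (adjusted p = 0.122), UACA at -0.20 (adjusted p = 0.151) and TNFRSF6B, a decoy receptor, at 0.32 (adjusted p = 0.165). ID4 measured 8.08, 4.96 and 7.41 CPM in vehicle and 12.4, 8.61 and 10.2 CPM at 10 ng/mL, and its groups did not overlap.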
